A study of Mus musculus and Homo sapiens with 176 samples.

Results

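Nefl, Nefm, Nefh, Ina, Map2, Mapt, Map1a, Map1b, Gap43 and Stmn2 encode neurofilament subunits, microtubule-associated proteins and growth-associated proteins of the neuronal cytoskeleton. These 10 genes were taken by symbol from the gene-level RNA tables, where each matched 1 of 24854 features and each passed the filter on low values. RNA was sequenced from nuclei of C57BL/6 mice aged 8 to 10 weeks, all from 1 mouse (the mouse numbered 3), and no genotype or treatment separates the groups. Nuclei of prefrontal cortex and of cerebellum were sorted by staining for NeuN, the nuclear protein encoded by Rbfox3, into NeuN+ and NeuN- nuclei, which gave 4 groups of 2 libraries. NeuN marks most neurons but stains Purkinje cells and some interneurons weakly, so NeuN- nuclei are not glia alone. The design compared NeuN+ with NeuN- nuclei within a region and each kind of nucleus between the regions. How prefrontal cortex was dissected, and what the replicate numbers stand for, is not stated in the labels.

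Neurofilaments are the intermediate filaments of axons. They are copolymers of a light (Nefl), a medium (Nefm) and a heavy (Nefh) subunit with alpha-internexin (Ina), and their density in an axon is known to go with its calibre. Microtubules run beside them and are stabilized by Map2, found mainly in dendrites, by tau (Mapt), found mainly in axons, and by Map1a and Map1b, of which Map1b is the form known from growing neurites. Gap43 is a membrane-bound protein of growth cones and presynaptic terminals, and Stmn2 is a stathmin that binds free tubulin and is known for its role in axon maintenance.

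Levels are in FPKM, which divides fragments by library size and transcript length, multiplied here by 1 scaling factor per library. FPKM sums of the libraries were 289350 to 426851, and 11256 to 12494 features reached 1 FPKM per library. The depth is not given directly. The confidence limits in the tables imply a relative depth from 1 to 1.51 across libraries, and from 119 fragments for Nefh to 7926 for Gap43 behind a single value. Replicates came from 1 animal, so every p-value measures only the spread between 2 libraries per group, which may be technical. That spread was small, and 70.1% to 79.4% of all 14376 features tested passed in each comparison. A count of genes that passed therefore carries little information by itself, and sizes and directions are given for each gene.

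Marker levels were read before the members, since bulk nuclei mix cell types. Oligodendrocyte markers (9 genes) summed to 1938 to 1943 scaled FPKM in prefrontal NeuN- nuclei and to 1612 to 1636 in cerebellar NeuN- nuclei, against 90.1 to 96.9 and 213 to 219 in the NeuN+ nuclei of the same regions. Astrocyte markers (8 genes) lay at 586 to 625 and 533 in the NeuN- groups and at 39.6 to 44.8 in the NeuN+ groups. Microglia markers (7 genes) were high in prefrontal NeuN- nuclei alone, at 461 to 467, and at 42.8 to 44.8 in cerebellar NeuN- nuclei. All 9 oligodendrocyte and all 8 astrocyte markers passed as lower in NeuN+ nuclei of both regions. General neuronal markers (10 genes) did not follow the gate in the same way in both regions. They summed to 1201 to 1202 in cerebellar NeuN+ nuclei and to 573 to 580 in cerebellar NeuN- nuclei, but to 1403 to 1418 in prefrontal NeuN+ and 1673 to 1774 in prefrontal NeuN- nuclei. Snap25, a synaptic fusion protein, made up most of the prefrontal sum, with group means of 1013 in NeuN+ and 1424 in NeuN- nuclei. The direction of that sum was thus the direction of Snap25 and not of most single markers. In prefrontal cortex 5 neuronal markers passed as higher in NeuN+ nuclei and 2 as lower, and in cerebellum 8 passed as higher and 2 did not pass. Granule cell markers (6 genes, among them Gabra6 and Cbln3) summed to 720 to 725 in cerebellar NeuN+ and 208 to 210.5 in cerebellar NeuN- nuclei. Purkinje cell markers (8 genes) summed to 764 to 771 and 895 to 928 in the same groups. The NeuN- nuclei of both regions thus held neuronal messages. Fewer nuclei of a type and less RNA per nucleus cannot be told apart in such bulk libraries.

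**Figure D1:**
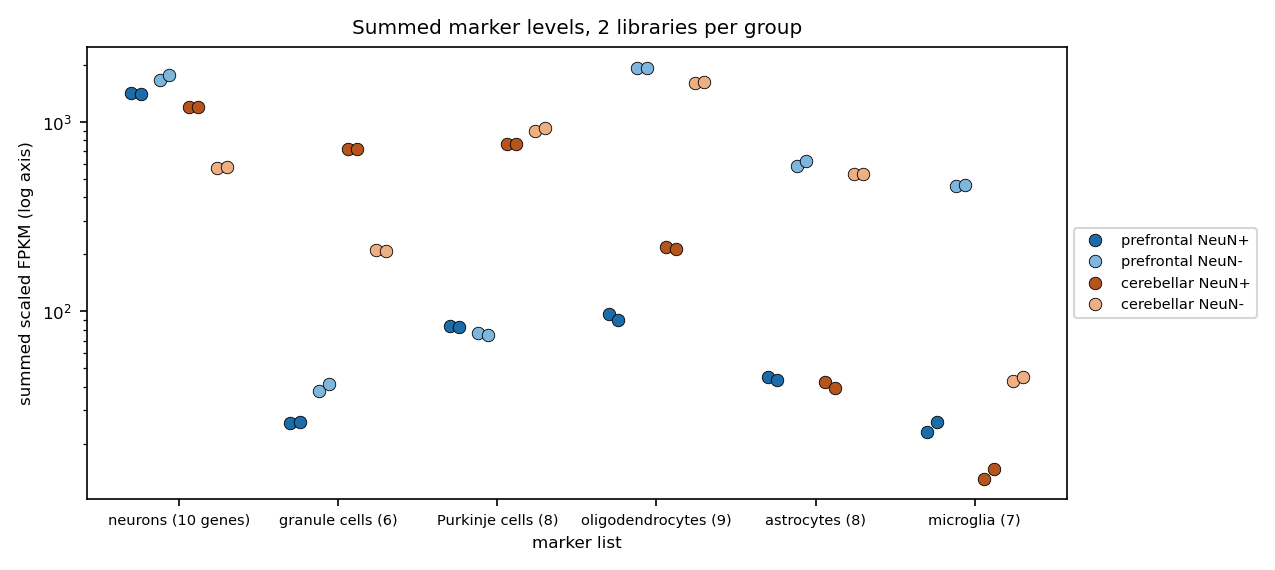
Summed scaled FPKM of 6 marker lists (log axis) in the 8 libraries, 1 point per library, coloured by group. Oligodendrocyte and astrocyte markers are higher in NeuN- nuclei of both regions. The neuronal sum is higher in NeuN+ nuclei of cerebellum and in NeuN- nuclei of prefrontal cortex. The prefrontal sum is mostly Snap25. Of the 10 neuronal markers, 5 passed as higher and 2 as lower in prefrontal NeuN+ nuclei.

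The 10 genes lie on mm9 as follows in the deposited tables. Nefl spans chromosome 14 from 68701941 to 68705794, and Nefm lies on the same chromosome from 68737602 to 68743061, with 31808 bases between the end of Nefl and the start of Nefm. Nefh spans chromosome 11 from 4838759 to 4848067, and Mapt lies on the same chromosome from 104092750 to 104193403. Ina lies on chromosome 19 from 47089188 to 47098836. Map2 spans chromosome 1 from 66221903 to 66489157, Map1a chromosome 2 from 121115338 to 121136568, and Map1b chromosome 13 from 100191419 to 100286557. Gap43 spans chromosome 16 from 42248674 to 42340764, and Stmn2 chromosome 3 from 8509527 to 8561604. Features of other genes overlap Nefm (A230070E04Rik), Nefh (Ap1b1), Ina (Nt5c2), Map1a (Ppip5k1) and Gap43 (Mir6540, listed at 0). No source used here says whether the counting used strand, so fragments of the overlapping pairs could be split either way, and values of Nefm, Nefh, Ina and Map1a carry that uncertainty.

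Nefl, the light subunit on which neurofilament assembly depends, had the largest regional difference of the 10 genes. Scaled FPKM of Nefl were 107 and 102 in prefrontal NeuN+ nuclei, 134 and 155 in prefrontal NeuN- nuclei, 13.2 and 15.7 in cerebellar NeuN+ nuclei, and 28.4 and 26.5 in cerebellar NeuN- nuclei. Both prefrontal groups stood above both cerebellar groups, the NeuN- groups stood above the NeuN+ groups of their region, and no groups overlapped. Nefl fell by 2.77 on the log2(scaled FPKM + 1) scale from prefrontal to cerebellar NeuN+ nuclei (SE 0.0984, 6.82-fold, limma adjusted p = 9.2e-07, n = 2 libraries per group). The same step in NeuN- nuclei was a fall of 5.10-fold (log2 -2.35, limma adjusted p = 2.1e-06). Within cerebellum Nefl was lower in NeuN+ than in NeuN- nuclei (log2 -0.88, 1.85-fold, limma adjusted p = 2.1e-04). Within prefrontal cortex it was also lower in NeuN+ nuclei (log2 -0.47, 1.38-fold, limma adjusted p = 0.00483), a call that was lost with FPKM rescaled to a common sum (log2 -0.25, limma adjusted p = 0.0644) and with quantile normalization (log2 -0.20, limma adjusted p = 0.126).

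Nefm, the medium subunit, had another order of groups. Its scaled FPKM were 14.7 and 14.8 in prefrontal NeuN+ nuclei, 20.8 and 21.6 in prefrontal NeuN- nuclei, 26.3 and 29.0 in cerebellar NeuN+ nuclei, and 20.0 and 21.5 in cerebellar NeuN- nuclei. The highest group of Nefm was thus cerebellar NeuN+ nuclei, where Nefl was lowest, and the NeuN- groups of the 2 regions overlapped. Nefm was higher in cerebellar than in prefrontal NeuN+ nuclei (log2 0.86, SE 0.0624, 1.82-fold, limma adjusted p = 2.1e-05). Within cerebellum it was higher in NeuN+ nuclei (log2 0.39, 1.31-fold, limma adjusted p = 0.00119), and within prefrontal cortex it was lower in them (log2 -0.50, 1.41-fold, limma adjusted p = 4.1e-04). Between the NeuN- groups the difference of Nefm was log2 -0.03 (limma adjusted p = 0.679) and turned positive with a common sum (0.26), with quantile normalization (0.17) and without cerebellar NeuN- replicate 1 (0.019). A230070E04Rik, the feature that overlaps Nefm, stood at 28.7 and 29.3 scaled FPKM in prefrontal NeuN+ nuclei and at 14.8 and 16.9 in cerebellar NeuN+ nuclei. It fell by 0.83 (log2) from prefrontal to cerebellar NeuN+ nuclei, where Nefm rose. How fragments were divided between the 2 features was not tested.

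Nefh, the heavy subunit of large myelinated axons, was the lowest of the 3 neurofilament subunits in every library. Its scaled FPKM were 2.58 and 3.10 in prefrontal NeuN+ nuclei, 2.58 and 2.06 in prefrontal NeuN- nuclei, 5.99 and 5.71 in cerebellar NeuN+ nuclei, and 3.42 and 3.29 in cerebellar NeuN- nuclei. Cerebellar NeuN+ nuclei stood above all other groups, and the prefrontal groups all but touched. Nefh was higher in cerebellar than in prefrontal NeuN+ nuclei (log2 0.84, SE 0.104, 1.79-fold, limma adjusted p = 3.1e-04) and higher in NeuN+ than in NeuN- nuclei of cerebellum (log2 0.65, 1.57-fold, limma adjusted p = 0.00125). In prefrontal cortex its gate difference was log2 0.21 (limma adjusted p = 0.110), which passed with a common sum (0.36, limma adjusted p = 0.0166), with quantile normalization (0.31, limma adjusted p = 0.0365) and without prefrontal NeuN- replicate 1 (0.32, limma adjusted p = 0.0464). Between NeuN- nuclei it was higher in cerebellum (log2 0.40, 1.32-fold, limma adjusted p = 0.0111), and this call was lost with unscaled FPKM (limma adjusted p = 0.0884), without prefrontal NeuN- replicate 2 (limma adjusted p = 0.0621) and without cerebellar NeuN- replicate 1 (limma adjusted p = 0.0568). Ap1b1, whose feature overlaps Nefh, was also higher in cerebellar than in prefrontal NeuN+ nuclei (log2 0.82), and its part in the Nefh values was not tested.

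Ina, alpha-internexin, was the only one of the 4 filament genes that passed as higher in NeuN+ nuclei of both regions, and it was higher in prefrontal cortex in both gates. Its scaled FPKM were 47.2 and 49.6 in prefrontal NeuN+ nuclei, 27.02 and 28.2 in prefrontal NeuN- nuclei, 26.1 and 29.2 in cerebellar NeuN+ nuclei, and 22.1 and 21.5 in cerebellar NeuN- nuclei. Prefrontal NeuN+ nuclei stood apart, and the next pair of groups overlapped. Ina was 1.73-fold higher in NeuN+ than in NeuN- nuclei of prefrontal cortex (log2 0.79, SE 0.0642, limma adjusted p = 5.0e-05) and 1.26-fold higher in those of cerebellum (log2 0.33, limma adjusted p = 0.00324). Between regions it fell by 0.79 (log2) from prefrontal to cerebellar NeuN+ nuclei (1.72-fold, limma adjusted p = 3.8e-05) and by 0.33 in NeuN- nuclei (1.255-fold, limma adjusted p = 0.00286). The NeuN- call was lost with a common sum (log2 -0.03, limma adjusted p = 0.675) and with quantile normalization (log2 -0.11, limma adjusted p = 0.134).

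**Figure D2:**
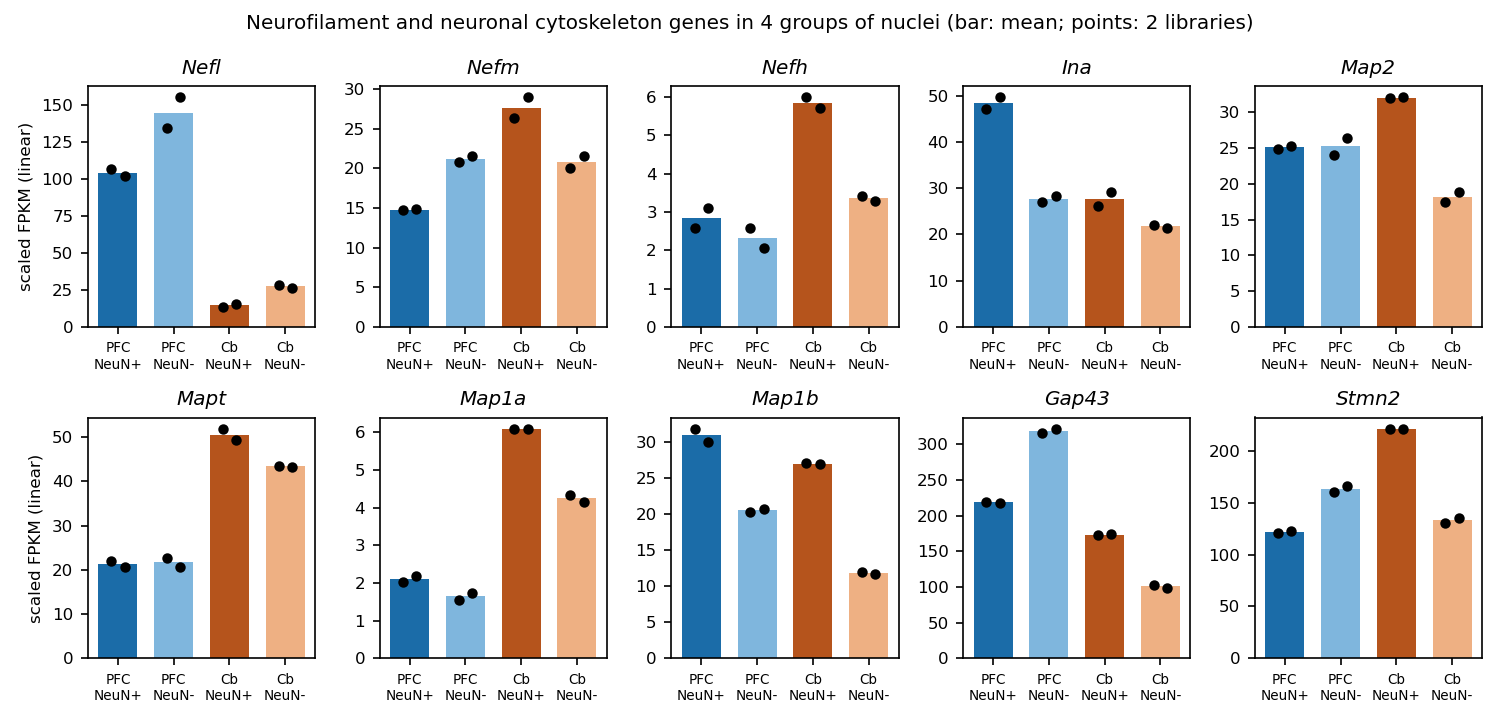
Scaled FPKM (linear axes from 0, 1 panel per gene) in prefrontal (PFC, blue) and cerebellar (Cb, orange) NeuN+ and NeuN- nuclei, with bars at the mean and points at the 2 libraries. Nefl is high in both prefrontal groups, Mapt and Map1a in both cerebellar groups, and Gap43 is lowest in cerebellar NeuN- nuclei.

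Because FPKM is per length, the 4 filament messages can be set beside each other as shares of their summed FPKM. Nefl made up 61.2% ± 1.59 (SD, n = 2) of the sum in prefrontal NeuN+ nuclei, 73.8% ± 1.56 in prefrontal NeuN-, 19.1% ± 0.884 in cerebellar NeuN+ and 37.4% ± 1.36 in cerebellar NeuN- nuclei. In single libraries its share was 62.3% and 60.1%, 72.7% and 74.9%, 18.5% and 19.7%, and 38.4% and 36.4% in the same order, so the groups did not overlap. Nefl was the leading message of the 4 in all prefrontal libraries and in both cerebellar NeuN- libraries. In cerebellar NeuN+ nuclei Nefm and Ina led instead, with mean shares of 36.6% each. The mean share of Nefh was 1.67% in prefrontal NeuN+ and 7.76% in cerebellar NeuN+ nuclei. Differences of shares were described and not tested. The summed scaled FPKM of the 4 messages was 169 to 207 in prefrontal libraries and 71.7 to 79.6 in cerebellar libraries, with the NeuN+ and NeuN- libraries of cerebellum overlapping.

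**Figure D3:**
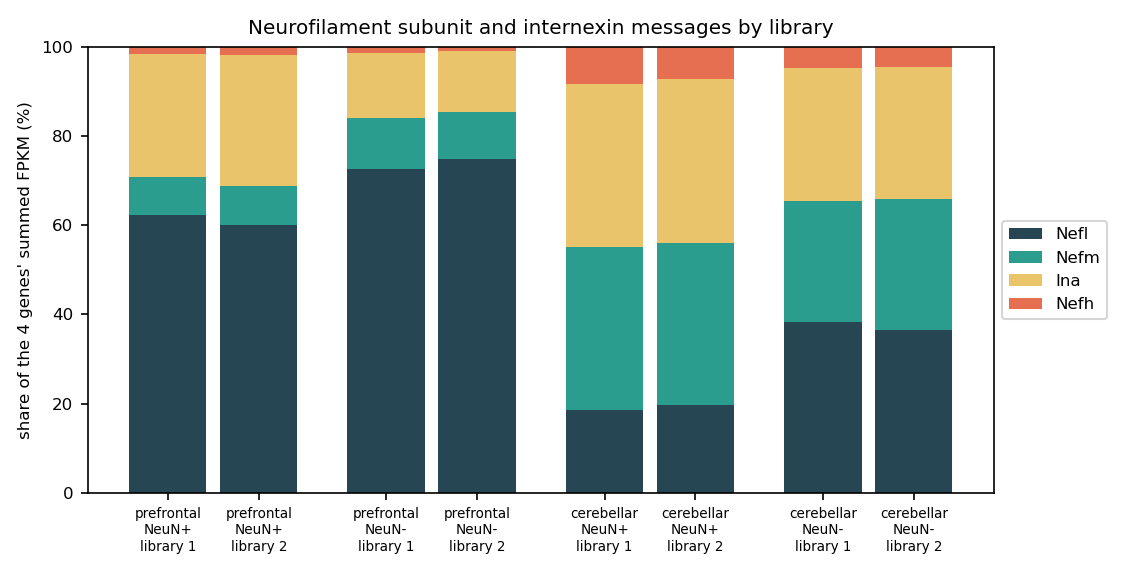
Share (%) of Nefl, Nefm, Ina and Nefh in their summed FPKM, 1 stacked bar per library. Nefl takes 60.1% to 74.9% in the prefrontal libraries and 18.5% to 38.4% in the cerebellar ones.

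Of the 4 filament genes, only Ina had an entry in the RefSeq promoter table (build GRCm38.p6, not the mm9 of the values). It is shown for the filament message that followed the NeuN+ gate in both regions. The 250 bases before its start (chr19:47014431-47014680, plus strand, 70.8% G and C) read as follows, with GC boxes in capitals (GGGCGG, or CCGCCC on the other strand).
Ina: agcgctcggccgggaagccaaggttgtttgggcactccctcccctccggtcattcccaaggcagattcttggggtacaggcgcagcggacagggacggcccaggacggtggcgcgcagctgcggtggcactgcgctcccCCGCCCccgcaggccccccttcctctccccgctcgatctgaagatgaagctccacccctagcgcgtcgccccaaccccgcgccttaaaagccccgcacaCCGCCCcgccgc
The window of Ina held 2 GC boxes, at 12 and 111 bases before the start, and neither TATAAA nor CCAAT on either strand. Of 32851 mouse promoter windows of this length, 32.7% held a GC box, 33.8% a CCAAT and 12.4% a TATAAA, and the median content of G and C was 52.4%.

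The microtubule-associated proteins split by region. Scaled FPKM of Map2 were 24.9 and 25.2 in prefrontal NeuN+ nuclei, 24.1 and 26.3 in prefrontal NeuN- nuclei, 32.0 and 32.1 in cerebellar NeuN+ nuclei, and 17.5 and 18.8 in cerebellar NeuN- nuclei. The prefrontal groups overlapped, and the cerebellar groups lay on either side of them. Map2 was 1.73-fold higher in NeuN+ than in NeuN- nuclei of cerebellum (log2 0.79, SE 0.0587, limma adjusted p = 3.1e-05). From prefrontal cortex to cerebellum it rose in NeuN+ nuclei (log2 0.34, 1.27-fold, limma adjusted p = 0.00155) and fell in NeuN- nuclei (log2 -0.45, 1.37-fold, limma adjusted p = 3.7e-04). Its prefrontal gate difference was log2 -0.01 (limma adjusted p = 0.934), which turned positive with a common sum (0.20), with quantile normalization (0.10), and without prefrontal NeuN+ replicate 1 (0.0028) or NeuN- replicate 2 (0.06).

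Mapt, which encodes tau, was high in cerebellum in both gates. Its scaled FPKM were 22.1 and 20.6 in prefrontal NeuN+ nuclei, 22.7 and 20.7 in prefrontal NeuN- nuclei, 51.8 and 49.3 in cerebellar NeuN+ nuclei, and 43.4 and 43.3 in cerebellar NeuN- nuclei. All 4 cerebellar libraries lay above all 4 prefrontal libraries, and the prefrontal gates overlapped. Mapt rose 2.31-fold from prefrontal to cerebellar NeuN+ nuclei (log2 1.21, SE 0.0608, limma adjusted p = 4.0e-06) and 1.95-fold in NeuN- nuclei (log2 0.97, limma adjusted p = 1.1e-05). Within cerebellum it was 1.16-fold higher in NeuN+ nuclei (log2 0.22, limma adjusted p = 0.0164), a call lost without cerebellar NeuN+ replicate 1 (limma adjusted p = 0.0882), NeuN- replicate 1 (limma adjusted p = 0.0616) or NeuN- replicate 2 (limma adjusted p = 0.0655). The prefrontal gate difference of Mapt was log2 -0.03 (limma adjusted p = 0.724), and it turned positive with a common sum (0.18), with quantile normalization (0.05), and without prefrontal NeuN+ replicate 2 (0.02) or NeuN- replicate 1 (0.04).

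Map1a and Map1b encode related microtubule-binding proteins, and their messages moved apart between regions. Scaled FPKM of Map1a were 2.04 and 2.18 in prefrontal NeuN+ nuclei, 1.55 and 1.74 in prefrontal NeuN- nuclei, 6.08 and 6.09 in cerebellar NeuN+ nuclei, and 4.35 and 4.16 in cerebellar NeuN- nuclei. Scaled FPKM of Map1b were 31.9 and 30.1, 20.3 and 20.8, 27.09 and 27.03, and 12.02 and 11.7 in the same order of groups. Map1a thus stood highest in cerebellum and Map1b in prefrontal NeuN+ nuclei, with no overlap between groups for either gene. From prefrontal cortex to cerebellum Map1a rose 2.28-fold in NeuN+ nuclei (log2 1.19, SE 0.0709, limma adjusted p = 8.5e-06) and 1.99-fold in NeuN- nuclei (log2 0.99, limma adjusted p = 1.9e-05). Map1b fell 1.67-fold in NeuN- nuclei (log2 -0.74, SE 0.0473, limma adjusted p = 1.1e-05) and 1.14-fold in NeuN+ nuclei (log2 -0.19, limma adjusted p = 0.00941), and the latter call was lost with a common sum (log2 -0.10, limma adjusted p = 0.0873) and with quantile normalization (log2 -0.06, limma adjusted p = 0.279). The share of Map1a in the summed FPKM of the pair was 6.38% and 7.40% as group means in prefrontal NeuN+ and NeuN- nuclei, and 18.4% and 26.4% in the cerebellar ones. Ppip5k1, whose feature overlaps the end of Map1a, was likewise higher in cerebellar than in prefrontal NeuN+ nuclei (log2 1.52). Between the NeuN- groups Ppip5k1 differed by log2 0.06 (limma adjusted p = 0.444). Its part in the Map1a values was not tested.

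Both genes followed the NeuN+ gate in both regions. Map1b was the larger of the 2, at 2.18-fold in cerebellum (log2 1.12, limma adjusted p = 2.7e-06) and 1.48-fold in prefrontal cortex (log2 0.57, limma adjusted p = 5.5e-05). Map1a was 1.35-fold higher in cerebellar NeuN+ nuclei (log2 0.43, limma adjusted p = 0.00143) and 1.17-fold higher in prefrontal NeuN+ nuclei (log2 0.23, limma adjusted p = 0.0227). The prefrontal call of Map1a was lost with unscaled FPKM (log2 0.08, limma adjusted p = 0.332), without prefrontal NeuN+ replicate 2 (limma adjusted p = 0.0953) and without prefrontal NeuN- replicate 1 (limma adjusted p = 0.0888).

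The promoters of this pair are shown because the messages moved in opposite directions between regions. Both windows are the 250 bases before the start in RefSeq's GRCm38.p6, for Map1a chr2:121289352-121289601 on the plus strand and for Map1b chr13:99516603-99516852 on the minus strand. Capitals mark TATA, CCAAT and GC boxes, searched by the letters given for Ina on either strand.
Map1a: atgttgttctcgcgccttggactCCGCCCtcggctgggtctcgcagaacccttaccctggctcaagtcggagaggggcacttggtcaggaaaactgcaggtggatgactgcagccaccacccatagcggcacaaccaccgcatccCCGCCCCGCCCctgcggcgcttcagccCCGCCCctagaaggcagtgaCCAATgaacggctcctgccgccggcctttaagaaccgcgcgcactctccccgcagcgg
Map1b: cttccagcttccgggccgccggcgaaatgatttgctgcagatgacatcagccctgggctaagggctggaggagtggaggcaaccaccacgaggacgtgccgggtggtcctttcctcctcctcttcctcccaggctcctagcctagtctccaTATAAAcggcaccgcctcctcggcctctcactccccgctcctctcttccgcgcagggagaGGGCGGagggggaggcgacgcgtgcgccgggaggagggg
The window of Map1a held 1 CCAAT, read at 58 bases before the start, and 4 GC boxes, of which 2 overlap by a base, and 66.0% of its bases were G or C. The window of Map1b held a TATAAA at 99 bases before the start and 1 GC box at 39, with 66.4% G or C. Map2, the other gene of the group with an entry (81.2% G or C), held 5 GC boxes and neither of the other motifs. A match of letters is a description of these windows and not a binding site.

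Gap43 and Stmn2 were the most abundant messages of the set in all 8 libraries. Scaled FPKM of Gap43 were 220 and 218 in prefrontal NeuN+ nuclei, 315 and 321 in prefrontal NeuN- nuclei, 172 and 174 in cerebellar NeuN+ nuclei, and 103 and 98.7 in cerebellar NeuN- nuclei. Prefrontal NeuN- nuclei were highest and cerebellar NeuN- nuclei lowest, with no overlap. Gap43 fell 3.14-fold from prefrontal to cerebellar NeuN- nuclei (log2 -1.65, SE 0.0418, limma adjusted p = 3.9e-07) and 1.26-fold between the NeuN+ groups (log2 -0.33, limma adjusted p = 3.2e-04). Within prefrontal cortex it was 1.45-fold lower in NeuN+ nuclei (log2 -0.54, limma adjusted p = 3.9e-05), and within cerebellum it was 1.71-fold higher in them (log2 0.77, limma adjusted p = 7.3e-06). Its group means lay between the 96.5th and the 99.2nd percentile of the features tested.

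Stmn2 showed the same reversal by gate. Its scaled FPKM were 120 and 123 in prefrontal NeuN+ nuclei, 160 and 166 in prefrontal NeuN- nuclei, 221 in both libraries of cerebellar NeuN+ nuclei, and 131 and 136 in cerebellar NeuN- nuclei. The groups did not overlap, and cerebellar NeuN+ nuclei stood highest. Stmn2 was 1.34-fold lower in NeuN+ than in NeuN- nuclei of prefrontal cortex (log2 -0.42, SE 0.0420, limma adjusted p = 1.3e-04) and 1.65-fold higher in those of cerebellum (log2 0.73, limma adjusted p = 9.7e-06). Between regions it rose 1.81-fold in NeuN+ nuclei (log2 0.86, limma adjusted p = 3.6e-06). In NeuN- nuclei it fell 1.22-fold (log2 -0.29, limma adjusted p = 6.4e-04), a direction that turned with a common sum (0.015, limma adjusted p = 0.776) and with quantile normalization (0.075, limma adjusted p = 0.179). Among the 4 stathmin genes, Stmn2 made up 9.44% and 7.94% of the summed FPKM as group means in prefrontal NeuN+ and NeuN- nuclei, and 26.2% and 22.3% in the cerebellar ones.

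In the comparison of NeuN+ with NeuN- nuclei of prefrontal cortex, 3 of the 10 genes passed as higher (Ina, Map1b and Map1a), 4 as lower (Gap43, Nefm, Nefl and Stmn2) and 3 did not pass (Nefh, Map2 and Mapt). Of all features tested, 72.6% passed, 35% as higher and 37.6% as lower, so this split was near the background. The median log2 change was -0.02 over the 10 genes and -0.01 over all features. With a common sum 6 of the 10 passed as higher. Such rescaling moved the median of all features from -0.01 to 0.14, and leaving FPKM unscaled moved it to -0.19. The share of higher calls among all calls moved with it, from 48.2% to 59.9% and 36.1%. Ina and Map1b passed as higher in NeuN+ nuclei, and Gap43, Nefm and Stmn2 as lower, in each of the 4 scalings, with a limma adjusted p of up to 0.0312 for Stmn2. The 4 genes that were lower in prefrontal NeuN+ nuclei moved as Snap25 did (log2 -0.49, limma adjusted p = 2.4e-04), and the part of the cell mixture in this was not tested.

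In cerebellum 9 of the 10 genes passed as higher in NeuN+ nuclei and 1, Nefl, as lower, against 32.4% higher and 39.2% lower (71.6% in all) among all features. The median log2 change was 0.54 over the 10 genes and -0.04 over all features. Sizes ran from 1.16-fold for Mapt to 2.18-fold for Map1b. Granule cell markers moved the same way and further, with 6 of 6 higher in NeuN+ nuclei and a median log2 change of 1.64, and Rbfox3 itself changed by log2 1.81. Tubb2a and Tubb2b, beta tubulin genes, were lower in cerebellar NeuN+ nuclei as Nefl was (log2 -0.996 and -1.18, limma adjusted p = 4.3e-06 and 4.4e-06). Most tubulins went the other way, with 8 of 14 higher in these nuclei and 3 lower. The part of the granule cell share in these values was not tested.

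**Figure D4:**
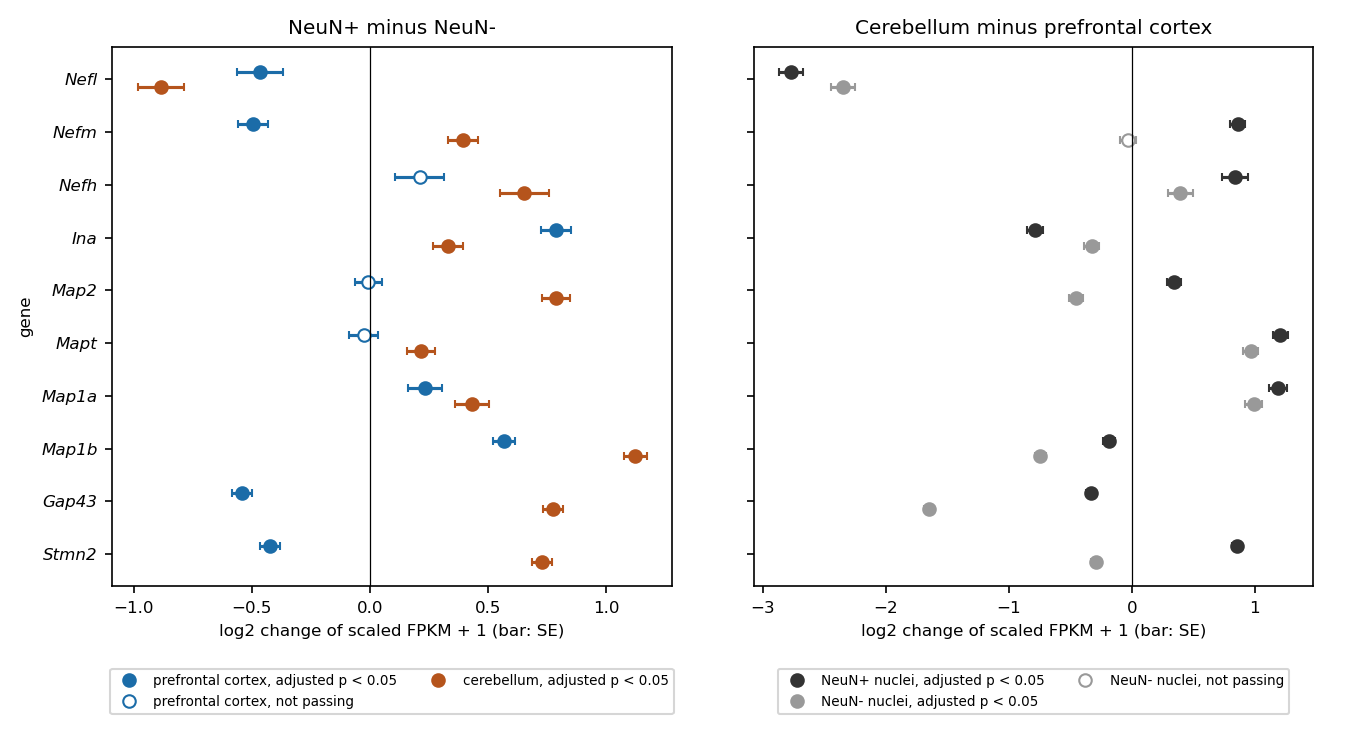
Log2 changes of scaled FPKM + 1 with their standard errors for the 10 genes, NeuN+ minus NeuN- in each region (left) and cerebellum minus prefrontal cortex in each gate (right); filled points passed at a limma adjusted p under 0.05 and open points did not. Nefm, Gap43 and Stmn2 lie on opposite sides of 0 in the 2 regions, and Nefl lies below -2 in both gates of the regional comparison.

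Between regions, NeuN+ nuclei of cerebellum were higher for 6 of the 10 genes (Mapt, Map1a, Nefm, Stmn2, Nefh and Map2) and lower for 4 (Nefl, Ina, Gap43 and Map1b), where 77.2% of all features passed, 36.5% as higher and 40.7% as lower. The median log2 change was 0.59 over the 10 genes and -0.03 over all features. In NeuN- nuclei 3 were higher in cerebellum (Map1a, Mapt and Nefh), 6 lower (Nefl, Gap43, Map1b, Map2, Ina and Stmn2) and Nefm did not pass, where 79.4% of all features passed, 40.5% as higher and 39% as lower. The medians were log2 -0.31 and 0.02. With a common sum the share of higher calls over all features moved from 50.97% to 62.05% in this comparison and its median from 0.02 to 0.26. As scaled here, Mapt, Map1a and Nefh were thus higher in cerebellum in both gates, and Nefl, Ina, Gap43 and Map1b lower in both. Map2 and Stmn2 were higher there in NeuN+ and lower in NeuN- nuclei. With a common sum and with quantile normalization, the calls of Map1b in NeuN+ and of Ina in NeuN- nuclei were lost. The NeuN- difference of Stmn2 turned positive with both (log2 0.015 and 0.075). The NeuN- call of Nefh was lost with unscaled FPKM (limma adjusted p = 0.0884) and with some single libraries left out. The 2 regional comparisons share no library, but they rest on the same mouse and the same estimate of spread and are not independent. Markers of cortical projection neurons (6 genes) summed to 51.1 to 51.7 scaled FPKM in prefrontal NeuN+ and to 4.98 to 4.99 in cerebellar NeuN+ nuclei, where granule cell markers summed to 25.6 to 25.9 and 720 to 725.

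The difference between the gate changes of the 2 regions was tested directly, as cerebellar minus prefrontal change. It passed for 9 of the 10 genes, where 70.1% of all features passed. Gap43 (log2 1.31, SE 0.0592, limma adjusted p = 9.2e-06), Stmn2 (1.15, limma adjusted p = 1.4e-05) and Nefm (0.89, limma adjusted p = 1.6e-04) were lower in NeuN+ nuclei of prefrontal cortex and higher in those of cerebellum. Map2 differed by 0.79 (limma adjusted p = 2.1e-04) and Map1b by 0.56 (limma adjusted p = 3.9e-04). Ina differed the other way, by -0.46 (limma adjusted p = 0.00386), which was lost with unscaled FPKM (limma adjusted p = 0.0597). In all 7 passed as higher, against 33.1% of features, and 2 as lower, Ina and Nefl, against 37%, and the median was log2 0.50 over the 10 genes and -0.06 over all features. Unscaled FPKM moved the share of higher calls over all features from 47.2% to 57.6% and the median to 0.13.

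The differences of Nefl (log2 -0.42, limma adjusted p = 0.0324), Nefh (0.44, limma adjusted p = 0.0332) and Mapt (0.24, limma adjusted p = 0.0411) were the least secure. That of Nefl was lost in 8 of 17 alternatives (limma adjusted p up to 0.263), that of Nefh in 8 (up to 0.106) and that of Mapt in 9 (up to 0.731). Leaving out a single library ended the call of Nefl for 6 of the 8 libraries, with limma adjusted p of 0.0559 to 0.103, and all but prefrontal NeuN- replicate 2 and cerebellar NeuN+ replicate 2 did so. For Nefh the same held for all libraries but prefrontal NeuN+ replicate 2 and prefrontal NeuN- replicate 2, with values of 0.0641 to 0.0998. For Mapt it held for all but prefrontal NeuN+ replicate 1 and prefrontal NeuN- replicate 2, with values of 0.0541 to 0.118. Map1a had a difference of 0.20 (limma adjusted p = 0.117), which passed with unscaled FPKM (0.35, limma adjusted p = 0.0165) and with a pseudocount of 5 (0.16, limma adjusted p = 0.0188).

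**Figure D5:**
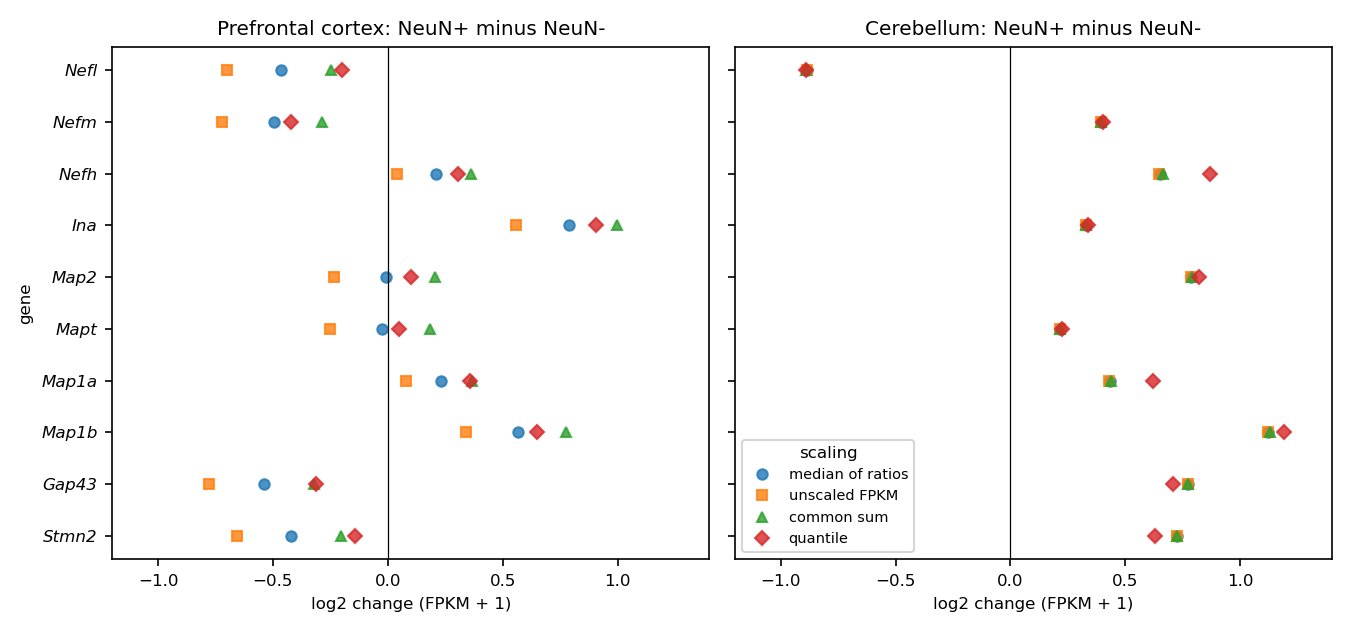
Log2 change of the 10 genes, NeuN+ minus NeuN-, under 4 scalings of the FPKM (1 symbol each) in prefrontal cortex (left) and cerebellum (right). The prefrontal points spread along the axis, and those of Map2 and Mapt lie on both sides of 0, while the cerebellar points of each gene lie on 1 side.

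Other genes of the cytoskeleton were read by list, against the same shares over all features (35% higher and 37.6% lower in prefrontal NeuN+ nuclei, 32.4% and 39.2% in cerebellar ones). From prefrontal cortex to cerebellum the shares were 36.5% higher and 40.7% lower in NeuN+ nuclei, and 40.5% and 39% in NeuN- nuclei. Tubulins, the building blocks of microtubules (14 genes), were mostly lower in prefrontal NeuN+ nuclei, with 1 higher, 8 lower and 5 that did not pass (median log2 -0.26), but the split of higher and lower was 0 and 12 with unscaled FPKM, 4 and 5 with a common sum, and 3 and 5 with quantile normalization. In cerebellum 8 were higher in NeuN+ nuclei, 3 lower and 3 did not pass (median log2 0.17). Between regions 9 of the 14 were lower in cerebellar NeuN+ nuclei and 10 in cerebellar NeuN- nuclei, with 3 and 1 higher (median log2 -0.41 and -0.79), the latter 9 lower and 4 higher with a common sum. Tubb2a had group means of 301 and 407 scaled FPKM in prefrontal NeuN+ and NeuN- nuclei and of 29.7 and 60.3 in the cerebellar ones. Tubb2b, a paralog of closely similar sequence, followed with 87.7, 117, 8.01 and 19.4, and fragments may be split between the 2 genes. Nefl had the same order of the 4 groups as Tubb2a and Tubb2b, an order that Stmn1, Cdk5, Marcks and Map6d1 also had.

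The other stathmins, which bind free tubulin, were lower in prefrontal NeuN+ nuclei in 3 of 3 genes, as Stmn2 was. In cerebellar NeuN+ nuclei 1 of the 3 was higher (Stmn3), 1 lower (Stmn4) and 1 did not pass (Stmn1). Stmn1 had group means of 854, 1426, 171 and 184 scaled FPKM in the NeuN+ and NeuN- nuclei of prefrontal cortex and those of cerebellum, and fell by 2.32 (log2) from prefrontal to cerebellar NeuN+ nuclei (limma adjusted p = 1.3e-07). Stmn3 had means of 298, 441, 445 and 261, with gate changes of log2 -0.57 in prefrontal cortex and 0.76 in cerebellum (limma adjusted p = 5.6e-05 and 1.3e-05). The signs of both gate changes were those of Stmn2, but Stmn3 was lowest in cerebellar NeuN- nuclei and Stmn2 in prefrontal NeuN+ nuclei. The difference of the gate changes of Stmn3 was log2 1.33 (limma adjusted p = 1.2e-05). Stmn4 did not share the reversal and was lower in cerebellar NeuN+ nuclei too (log2 -1.41, limma adjusted p = 1.35e-04). Its difference of gate changes was log2 -0.69 (limma adjusted p = 0.0205), lost with unscaled FPKM (limma adjusted p = 0.0922) and in other alternatives.

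Other microtubule-associated proteins (15 of 16 tested) had 6 higher, 4 lower and 5 that did not pass in prefrontal NeuN+ against NeuN- nuclei, and 4, 8 and 3 in cerebellum. The prefrontal split of higher and lower was 4 and 7 with unscaled FPKM and 9 and 4 with a common sum, so its balance turned with the scaling. Dcx, doublecortin of migrating young neurons, had group means of 7.12 scaled FPKM in prefrontal NeuN+ nuclei and under 1 in the other groups (0.577 in prefrontal NeuN-, 0.267 in cerebellar NeuN+ and 0.745 in cerebellar NeuN- nuclei). Map7, which recruits kinesin to microtubules, was lower in NeuN+ nuclei of both regions (log2 -1.21 and -2.08, limma adjusted p = 1.6e-06 and 3.4e-07), with means of 65.3 and 108 in the NeuN- groups. Crmp1 and Dpysl4, collapsin response mediator proteins, were higher in cerebellar NeuN+ than NeuN- nuclei (log2 0.93 and 1.37, limma adjusted p = 4.8e-05 and 2.6e-05). Between regions 5 of the 15 were higher and 9 lower in cerebellar NeuN+ nuclei, and 8 higher and 6 lower in cerebellar NeuN- nuclei. The NeuN+ split was 5 and 7 with a common sum and 5 and 6 with quantile normalization. The NeuN- split was 7 and 6 with unscaled FPKM and 9 and 4 with a common sum.

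Spectrins, ankyrins and adducins form the membrane skeleton of axons (10 of 11 tested). In cerebellum 6 were higher and 4 lower in NeuN+ nuclei (median log2 0.92), and in prefrontal cortex 5 were higher, 3 lower and 2 did not pass (median log2 0.20), a split of 4 and 4 with unscaled FPKM and of 7 and 3 with a common sum. Sptan1, alpha spectrin of the brain, had means of 57.6 and 36.7 scaled FPKM in prefrontal NeuN+ and NeuN- nuclei and of 76.9 and 29.4 in the cerebellar ones. From prefrontal cortex to cerebellum 7 were higher and 2 lower in NeuN+ nuclei and 5 higher and 4 lower in NeuN- nuclei, the latter 6 and 0 with a common sum.

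Proteins of microtubule ends and severing enzymes (12 of 13 tested) had 6 higher and 2 lower in prefrontal NeuN+ nuclei and 6 higher and 3 lower in cerebellar ones, but the prefrontal split was 5 and 5 with unscaled FPKM and 9 and 1 with a common sum. Katna1, the catalytic subunit of katanin, had means of 47.9 and 17.4 scaled FPKM in prefrontal NeuN+ and NeuN- nuclei and of 30.5 and 31.2 in the cerebellar ones. Of 5 kinases and activators tested of 9 listed that phosphorylate tau or neurofilaments, 3 were higher and 1 lower in prefrontal NeuN+ nuclei (3 and 2 with unscaled FPKM) and 2 higher and 1 lower in cerebellar ones. The lower of these was Cdk5 in both regions (log2 -0.42 and -1.35, limma adjusted p = 3.0e-04 and 1.5e-06), while its activator Cdk5r1 was higher in NeuN+ nuclei of both (0.84 and 0.56, limma adjusted p = 1.5e-04 and 0.00110). Growth cone and calmodulin-binding proteins like Gap43 (5 genes) had 2 lower in NeuN+ nuclei of each region and 3 that did not pass, and 1 higher and 1 lower in cerebellum with quantile normalization. Basp1, a growth cone protein related in function to Gap43, had means of 23.2 and 24.4 scaled FPKM in the prefrontal groups and of 0.0534 and 0.467 in the cerebellar ones. Gap43 thus remained high in cerebellum where Basp1 was near 0.

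Intermediate filament genes outside the set (6 of 9 tested) had 2 higher and 3 lower in prefrontal NeuN+ nuclei and 3 lower and 3 that did not pass in cerebellar ones. Vim, vimentin of astrocytes and other non-neuronal cells, had means of 27.2 scaled FPKM in cerebellar NeuN- nuclei, 6.11 in cerebellar NeuN+, and 1.18 and 1.399 in the prefrontal groups. Lmna, a nuclear lamin, was highest in prefrontal NeuN+ nuclei at 25.3, with 13.1 in prefrontal NeuN- and 5.76 in each cerebellar group.

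Likeness of pattern was measured as the root mean square difference of log2(scaled FPKM + 1) over the 8 libraries, each gene centred on its own mean, among 7172 features. The nearest features were Rab5a for Nefl (0.120), Ubxn6 for Nefm (0.0574), Nfix for Nefh (0.0651), Csmd3 for Ina (0.0732) and Mdm2 for Map2 (0.0714). They were Tnrc6a for Mapt (0.0501), Acin1 for Map1a (0.0313), Rae1 for Map1b (0.0496), Dazap2 for Gap43 (0.0331) and Ganab for Stmn2 (0.0650). Nefl was the farthest from its nearest feature. None of the 3 nearest features of any gene was another of the 10. Candidates needed a mean of at least 5 scaled FPKM over the libraries, so Nefh and Map1a could not be listed. With so few of the 10 among 7172 candidates, this absence carries little information. Within the set the closest pairs were Mapt with Map1a (0.139), Nefm with Stmn2 (0.141) and Map2 with Stmn2 (0.226). Of the neurofilament subunits, Nefm and Nefh lay at 0.302, but Nefl lay at 1.56 from Nefm and 1.70 from Nefh. The 8 points of each gene are 4 groups of 2 libraries of 1 mouse. Likeness thus mainly describes the differences among 4 group means, in direction and in size.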

How the data were processed

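RNA of sorted nuclei was read from 8 gene-level tables, 1 per library; the 114 mouse and 54 human chromatin samples are not analysed here. Per the file headers the authors deposited FPKM with confidence limits, in the layout of Cufflinks. Tools named by the submitters' processing notes, with no roles, include TopHat2 2.1.1, Bowtie 1.1.1, Trim Galore 0.3.7 and Cufflinks, with build mm9; annotation and strand setting are not stated in any source used here. FPKM already carries library size and length, so no count test was run, and depth was read from the confidence limits. Per the labels' protocols, nuclei were pelleted through sucrose before sorting.

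Libraries were scaled by a median of ratios over 9109 features (factors 0.869 to 1.04). The 14376 features reaching 1 FPKM in 2 or more libraries entered limma 3.58.1 (R 4.3.3) as log2(scaled FPKM + 1), with a mean for each of the 4 groups, a variance trend and 4 residual degrees of freedom. Folds printed beside log2 changes are on that scale, which understates changes of low genes. Tests were two-sided, with Benjamini-Hochberg adjustment over all features within each of 5 comparisons; a gene passed at an adjusted p under 0.05. The fit was tested on simulated data. Replicate numbers come from the sample titles; same-numbered libraries did not deviate together (correlations -0.0451 to 0.0342), so no block was used.

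The 10 genes and the lists were chosen with earlier results of these data known. Named were the 10 genes; per list and comparison, up to 3 passing genes with the largest change whose higher group had a mean of 5 or more; and the 3 most alike features per gene. Overlapping features, and Snap25 and Rbfox3 beside results, were named after their values were seen. Promoters matched 4 of 10 by symbol. The 17 alternatives covered pseudocount, filter, scaling, trend, replicate block and each library left out.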

Additional observations from a re-analysis of the deposited data

Results flagged for a closer look

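The change from NeuN- to NeuN+ nuclei differed between cerebellum and prefrontal cortex, by a limma test of the difference itself, for 9 of the 10 genes. As cerebellar minus prefrontal change on the log2 scale, the difference was 1.31 for Gap43, 1.15 for Stmn2, 0.89 for Nefm, 0.79 for Map2, 0.56 for Map1b, 0.44 for Nefh, 0.24 for Mapt, -0.42 for Nefl and -0.46 for Ina. Of all features tested, 70.1% passed the same test. From each list of other cytoskeletal genes, among passing genes whose highest group mean reached 5 scaled FPKM, the largest such difference was 1.44 for Tubb4a among tubulins, 1.33 for Stmn3 among stathmins, 0.81 for Pcp4 among growth cone partners, 0.72 for Sptan1 among spectrins and ankyrins, -0.94 for Cdk5 among kinases, -1.45 for Katna1 among microtubule end and severing proteins, -1.85 for Vim among intermediate filaments and -2.83 for Dcx among other microtubule-associated proteins. All 9 oligodendrocyte and all 8 astrocyte markers passed as lower in NeuN+ nuclei of both regions, and their part in these differences was not tested.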

How the results depend on the processing

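Of the 10 genes, every direction held under the 17 alternatives in cerebellum, between the NeuN+ groups and in the difference of gate changes. Directions turned in prefrontal cortex for Map2 (log2 0.20 with a common sum, 0.10 with quantile normalization) and Mapt (0.18 and 0.049), and between the NeuN- groups for Nefm (0.26 and 0.17) and Stmn2 (0.015 and 0.075). With a library left out the range crossed 0 for Map2 (-0.069 to 0.056), Mapt (-0.088 to 0.037) and Nefm (-0.078 to 0.019). The cause of these turns was not tested. In prefrontal cortex 6 genes were higher with a common sum, against 3. In the difference of gate changes, genes called lower numbered 1 with a pseudocount of 5, 0 with unscaled FPKM and 1 to 2 with a library left out, against 2. Of 1853 values of named list genes under the alternatives, 31 lost their call and 0 changed direction.

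With a replicate block, which leaves 3 residual degrees of freedom, 10343 features passed in prefrontal cortex, 10184 in cerebellum, 11021 and 11376 between regions and 9948 in the difference, and no call of the 10 genes changed. The numbers do not pair the libraries.

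With the lower and upper confidence limits of the FPKM in place of the values, shares moved beyond the replicate SD for Nefm in prefrontal NeuN+ (8.33% and 8.98%) and cerebellar NeuN+ nuclei (37.0% and 36.2%), Nefh in cerebellar NeuN- nuclei (4.24% and 4.85%), Stmn2 in cerebellar NeuN+ nuclei (26.3% and 26.2%), and Map1a in prefrontal NeuN+ (5.83% at the lower limits), prefrontal NeuN- (6.83% and 7.93%), cerebellar NeuN+ (17.7% and 19.0%) and cerebellar NeuN- nuclei (25.5% and 27.1%). Depth limits Nefh and Map1a most. With 2 libraries per group from 1 mouse, no value speaks to differences between animals.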
